A study of Mus musculus with 8 samples.

Results

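Agt-positive astrocytes of the mouse hippocampus were 921 of the 12954 cells that passed the gene and mitochondrial filters in 2 single-cell libraries, and 921 of 61745 barcodes in all gene tables of the series. They were chosen by their own counts of unique molecular identifiers (UMIs, each 1 captured RNA molecule). A member had at least 500 detected genes, under 15% mitochondrial UMIs, at least 4 of the 8 astrocyte genes Aqp4, Gja1, Gjb6, Ntsr2, Aldoc, Slc1a2, Slc4a4 and Cldn10, at least 1 Agt UMI, and 0 UMIs summed over Mog, Pdgfra, Cldn5 and Riiad1. The same rule without an Agt UMI gave 984 Agt-negative astrocytes, which served as the comparison. Agt lies on mm10 chr8:124556534-124569706, on the minus strand, as gene ENSMUSG00000031980.10.

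Both libraries came from mice that received diphtheria toxin. One library held cells of Foxp3-DTR+ mice, in which Foxp3-expressing regulatory T cells carry a diphtheria toxin receptor and are killed by the toxin. The other held cells of Foxp3-DTR- littermates, which got the toxin but lack the receptor. Each library pooled 2 mice, and live CD45- Thy1- hippocampal cells were sorted, a gate that removes leukocytes and many neurons. The labels give no age. With 1 library per genotype, genotype, animals and library cannot be told apart, and the intervals below cover counting error only. T cells were outside the gate, with 0 UMIs for Cd3e, Cd3g, Ptprc and Foxp3 in the astrocytes, so the depletion itself could not be checked in these cells.

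Astrocytes take up glutamate and GABA, buffer potassium and water, and supply lipids and metabolic substrates to neurons. Angiotensinogen, the product of Agt, is the only known precursor of the angiotensin peptides: renin and then angiotensin-converting enzyme cut it. In the brain it is made mainly by astrocytes, with levels that differ between regions.

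The Foxp3-DTR- library held 424 members among 892 astrocytes, and the Foxp3-DTR+ library held 497 among 1013. Members had a median of 4296.5 UMIs and 1714 genes per cell in Foxp3-DTR- and 3314 UMIs and 1468 genes in Foxp3-DTR+. Agt-negative astrocytes were shallower, with medians of 3188 and 2830 UMIs. All 8 astrocyte genes were seen in 73.8% and 71.0% of members and in 46.6% and 47.9% of Agt-negative astrocytes. Median mitochondrial shares were 2.79% and 2.73% in members and 3.69% and 3.27% in Agt-negative astrocytes. The doublet caller Scrublet marked 1 member in each library and 8 and 3 Agt-negative astrocytes. The 2 libraries shared 18 of their barcodes, of which 1 was an astrocyte and 0 were members.

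Agt counts per member were low. The median was 2 UMIs in both libraries. In Foxp3-DTR-, 174 members had 1 UMI, 128 had 2, 106 had 3 to 5 and 16 had 6 or more, with a highest count of 11. In Foxp3-DTR+, the same classes held 209, 128, 137 and 23 members, with a highest count of 9. The values that chose the members are descriptions and were not tested. Summed over members, the Agt level was 505 UMIs per 1000000 UMIs of all genes (CPM; 95% Poisson interval 473 to 538) in Foxp3-DTR- and 628 CPM (591 to 666) in Foxp3-DTR+. Each member must hold an Agt UMI, which raises this level in shallow cells, and Foxp3-DTR+ members were shallower. The 2 levels therefore cannot be compared between genotypes. Agt was rare in other sorted cells, which were taken only if they held at most 1 of the 8 astrocyte genes. They also had 0 UMIs of the other excluded genes. This selection removed cells with more astrocyte RNA before Agt was counted, so low shares are partly built in. Cells with at least 4 astrocyte genes and an excluded-gene UMI had Agt UMIs in 41.5% of 316 and 41.7% of 309. Of the oligodendrocytes chosen by Mog, 0.595% in Foxp3-DTR- and 0.621% in Foxp3-DTR+ had an Agt UMI, at median depths of 7444 and 6042 UMIs, both deeper than the astrocytes. No Agt UMI was found in 481 and 340 endothelial cells chosen by Cldn5, at median depths of 1945 and 1599.5 UMIs. A count of 0 allows up to 0.624% and 0.882% of these cells to hold an Agt UMI (a count of 3), and at this depth it does not limit the share that expresses Agt.

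Agt detection was also read in cells just inside and just outside the rule, as a description. Among cells with 4 of the 8 astrocyte genes, 4 of 44 in Foxp3-DTR- and 5 of 46 in Foxp3-DTR+ had an Agt UMI. Among cells with 3 of the 8 genes, left out by the rule, 1 of 40 and 3 of 43 had one. Cells that met the astrocyte rule but held exactly 1 UMI of the excluded genes, and were therefore left out, had Agt UMIs in 56.4% of 117 cells and 50.8% of 132 cells. Members with 1 Agt UMI had 732 and 702 CPM of Slc7a10, and astrocytes with 0 Agt UMIs had 605 and 587 CPM.

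Whether an astrocyte counted as Agt-positive depended on its depth. In Foxp3-DTR-, 15.4% of astrocytes of 1000 to 1500 UMIs had an Agt UMI, 40.4% of those of 2000 to 3000, and 61.9% of those of 5000 to 7000. In Foxp3-DTR+ the shares in these classes were 18.9%, 55.0% and 54.2%. Above 3000 UMIs the share lay between 53.2% and 63.2% in both libraries. In shallow cells Agt was often not detectable. With a median of 2 Agt UMIs per member, deeper cells with Agt RNA can also read 0. The Agt-negative class, also at matched depth, may therefore hold cells with Agt RNA.

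**Figure D1:**
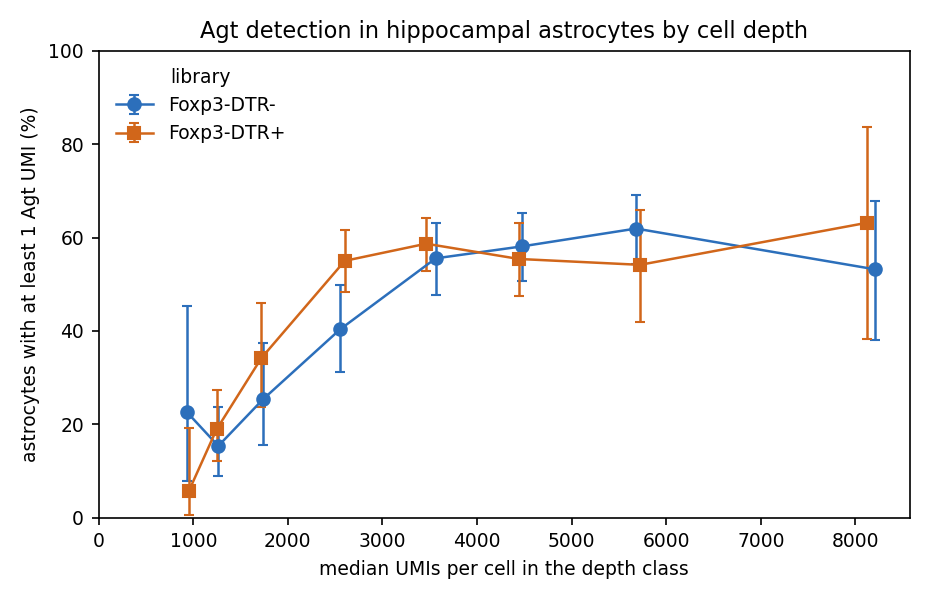
Share of astrocytes with at least 1 Agt UMI (y axis, percent) against the median UMIs of the depth class (x axis) in Foxp3-DTR- (circles) and Foxp3-DTR+ (squares), with exact 95% binomial intervals as bars. Shares climb to about 3000 UMIs and then lie between 53.2% and 63.2%.

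The share of astrocytes with an Agt UMI was compared between genotypes after thinning each cell to 2000 UMIs, which left out shallower cells and kept 699 of 892 and 791 of 1013 astrocytes. It was 37.1% (exact binomial 33.5 to 40.8) in Foxp3-DTR- and 43.1% (39.6 to 46.6) in Foxp3-DTR+, a difference of 6.06 percentage points (95% counting interval 1.07 to 10.99). Without thinning, the shares were 47.5% and 49.1%, a difference of 1.53 points (-2.96 to 6.01). After thinning to 4000 UMIs, which kept 414 and 257 cells, the difference was -1.30 points (-9.02 to 6.43). After thinning to 1000 UMIs it was 4.72 points (0.84 to 8.56). At 2000 UMIs it was 5.81 points without Scrublet doublets, 5.41 with at least 6 of 8 genes and 4.79 (-0.48 to 10.01) under 5% mitochondrial UMIs. Among these settings the sign turned only at 4000 UMIs, where the fewest cells were left. By unthinned depth, Foxp3-DTR+ had the higher share at 3000 to 4000 UMIs (58.7% against 55.6%) and the lower at 4000 to 5000 (55.4% against 58.1%). Its share was also lower at 5000 to 7000 UMIs but higher above 7000 (63.2% against 53.2%). No replicate was at hand to test the difference.

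The label was checked against marker genes. Outside the genes of the rule, members expressed Slc7a10, which carries alanine, serine and cysteine, at 752 CPM in both libraries, and Slc6a11, the GABA transporter GAT-3, at 357 CPM in Foxp3-DTR- and 379 CPM in Foxp3-DTR+. Aqp4, the water channel of astrocyte endfeet, stood at 869 and 858 CPM, and Gjb6, which encodes connexin 30, at 655 and 652 CPM, but both helped to choose the members and are no check. The summed level of 6 neuronal markers was 10 CPM in Foxp3-DTR- and 12 CPM in Foxp3-DTR+, with Slc17a7 at 0. The 6 microglial markers summed to 10 and 8 CPM, with Cx3cr1 and Tmem119 at 0. The 8 oligodendrocyte markers summed to 413 and 479 CPM with Mog at 0 by the rule. The 5 choroid plexus markers summed to 90 and 36 CPM, nearly all of it Ttr, and Kl, Aqp1 and Clic6 were at 0. Of the 8 listed telencephalic genes, Mfge8 was at 2072 and 2462 CPM in members and the transcription factor gene Lhx2 at 208 and 154 CPM. Emx1 was nearly absent, with 7 UMIs in Foxp3-DTR- and 3 in Foxp3-DTR+, as was Dmrt3, with 3 and 4 UMIs. The other listed telencephalic genes lay between 26.8 and 116 CPM. Of the 14 listed genes of astrocytes outside the telencephalon, Irx1, Irx2, Irx3, Irx5, Otx2, Gbx2, Pax3 and En1 had 0 UMIs in members, which allows up to 1.63 CPM in Foxp3-DTR- and 1.71 CPM in Foxp3-DTR+. Others of that list were present: Sparc was at 664 and 692 CPM, Slc6a11 as above, Itih3 at 115 and 139 CPM, Slc6a9 at 36.9 and 39.4 CPM, and Zic1 and Zic4 had 10 UMIs each in Foxp3-DTR- and 3 each in Foxp3-DTR+. The whole list summed to 1183 and 1253 CPM.

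At equal depth, members held more RNA than Agt-negative astrocytes of Mfge8, Sparc, Sparcl1, Itih3, Il33 and Slc7a11, by 1.24 to 1.94-fold in either library. They held less of Thrsp (0.598 and 0.68-fold in Foxp3-DTR- and Foxp3-DTR+), of ribosomal protein genes and of a few progenitor genes. Within each library, equal numbers of both classes were drawn from each bin of 0.25 log2 UMIs, giving 321 against 321 cells in Foxp3-DTR- and 383 against 383 in Foxp3-DTR+. Counts were summed per class and library, and the 4 sums were compared with edgeR's quasi-likelihood test with the library as a block. Both sums of a library share its mice, and 1 residual degree of freedom remained. At an adjusted p under 0.05 (Benjamini-Hochberg over all genes tested), 158 of 9290 genes differed (1.7%): 40 were higher in members (0.431%) and 118 were lower (1.27%). Of the 158 genes, 156 moved the same way in both libraries, but a test blocked by library rarely calls a gene otherwise. The count of calls depended strongly on the setting. It was 1 without the library block, 4 with DESeq2, 0 without the filter on low counts (689 genes at an unadjusted p under 0.05 by edgeR, against 907 with the filter), 2 with the Scrublet doublets removed, and 324 without matching on depth. The 25 genes named by rule kept their direction in 10 alternative fits, and 24 of 25 did in each of 2 more that were chosen after seeing the data. They were chosen for large ratios of 1 sign in both libraries and the fits share most cells, so this is no sign of stability, and other called genes did reverse. Over the 1438 genes with a mean of at least 100 CPM and a ratio in both libraries, 933 (64.9%) moved the same way in both.

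**Figure D2:**
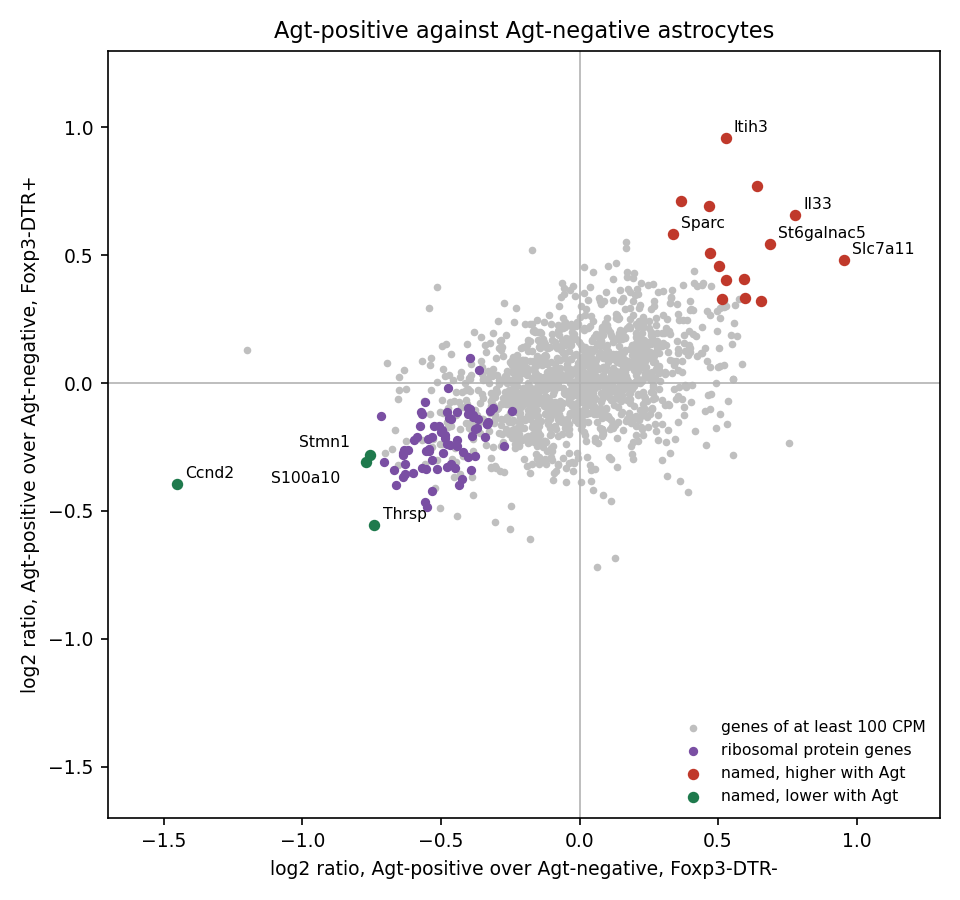
Log2 ratio of Agt-positive over Agt-negative astrocytes in Foxp3-DTR- (x axis) and Foxp3-DTR+ (y axis) for 1437 genes with a mean of at least 100 CPM over the 4 sums; Ttr lies outside the axes. Red and green points are the genes named by rule that were higher and lower with Agt, and purple points are ribosomal protein genes, which lie mostly in the lower left.

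Among the genes named by rule and the listed genes followed over the settings, Thrsp was called lower in the most. It encodes a regulator of fatty acid synthesis. Its level was 878 CPM in Agt-negative and 525 CPM in Agt-positive cells of Foxp3-DTR-, and 806 and 548 CPM in Foxp3-DTR+. Both members' sums lay below both Agt-negative sums, by 0.64 ± 0.10 on the log2 scale (fit ± standard error, a log2 ratio of -0.64; edgeR adjusted p = 4.5e-08), and the call held in 10 of 12 alternative settings. Thrsp, read in cells thinned to 2000 UMIs, also fell step by step with the number of Agt UMIs counted before thinning. In Foxp3-DTR- it was 861 CPM in cells with 0 Agt UMIs, 547 with 1, 475 with 2 and 389 with 3 or more. In Foxp3-DTR+ the same classes had 787, 596, 521 and 369 CPM. Median depths before thinning ranged from 4225 to 4515.5 UMIs over the 4 classes in Foxp3-DTR- and from 3338 to 3598 in Foxp3-DTR+. These steps were not tested.

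Of 16 tested genes in the list of synaptic, secreted and phagocytic genes, 2 passed, Sparc and Sparcl1, both higher in members, with a list median of 0.17. Mfge8, whose product bridges dying cells and phagocytes, stood at 1574 CPM in Agt-negative and 2096 CPM in Agt-positive cells of Foxp3-DTR-, and at 1858 and 2436 CPM in Foxp3-DTR+. Its log2 ratio was 0.41 ± 0.08 (edgeR adjusted p = 0.00039), it was seen in 94.0% and 96.1% of thinned members, and the call held in 9 of 12 settings. Sparc, a matricellular protein that limits synapse formation, rose from 549 to 694 CPM in Foxp3-DTR- and from 468 to 702 CPM in Foxp3-DTR+ (log2 ratio 0.46 ± 0.10; edgeR adjusted p = 0.00068). Its relative Sparcl1, which promotes synapse formation, was higher by 0.33 ± 0.08 (edgeR adjusted p = 0.004). Itih3, which encodes a heavy chain that binds hyaluronan, had the largest ratio among the named genes: 75.7 against 109 CPM in Foxp3-DTR- and 77.7 against 151 CPM in Foxp3-DTR+, a log2 ratio of 0.76 ± 0.15 (edgeR adjusted p = 0.0002). Il33, the alarmin interleukin 33, was at 91.5 and 103 CPM in Agt-negative and at 157 and 162 CPM in Agt-positive cells (log2 ratio 0.72 ± 0.14; edgeR adjusted p = 0.00011). For each of these 5 genes both members' sums lay above both Agt-negative sums. The call held in 8 of 12 settings for Sparc and Itih3, and in 7 of 12 for Sparcl1 and Il33.

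Of the 13 listed transport genes for GABA, glycine and other amino acids, 12 were tested: Slc7a11 passed as higher and Slc38a1 as lower. The Slc38a1 call held in 5 of 10 alternative settings. Over all members it had 18 and 19 UMIs, of which 5 cells held 77.8% and 78.9%. Slc7a11, the cystine-glutamate exchanger subunit, stood at 132 and 192 CPM in Agt-negative and 256 and 268 CPM in Agt-positive cells of Foxp3-DTR- and Foxp3-DTR+ (log2 ratio 0.71 ± 0.12; edgeR adjusted p = 7.7e-06). Its partner subunit Slc3a2 had a log2 ratio of 0.32 ± 0.11 that did not pass (edgeR adjusted p = 0.11). Gabrg1, a GABA-A receptor subunit, rose by 0.50 ± 0.13, and the potassium channel gene Kcnj16 by 0.66 ± 0.16 (edgeR adjusted p = 0.0079 and 0.0057). Over the alternative settings the call held in 7 of 12 for Slc7a11, 4 of 12 for Gabrg1 and 3 of 12 for Kcnj16. Kcnj10, which encodes the main astrocytic inward rectifier Kir4.1, had a log2 ratio of 0.11 ± 0.13 (edgeR adjusted p = 0.88). Slc6a11 stood at 256 and 316 CPM without and 355 and 380 CPM with Agt. Its log2 ratio of 0.37 ± 0.11 missed the threshold at an edgeR adjusted p of 0.053. Slc7a10 went from 625 to 728 CPM and from 621 to 726 CPM, a log2 ratio of 0.23 ± 0.10 that did not pass (edgeR adjusted p = 0.35). The glycosyltransferase genes St6galnac5, Fut9 and B3galt2 were higher in members by 0.62, 0.49 and 0.54 on the log2 scale, with calls that held in 7, 6 and 4 of 12 settings. The remaining genes named by rule as higher were 2310022B05Rik, Paqr6, Nnat, Fjx1, Mpp6, Tmem176a and Trim9, with log2 ratios between 0.42 and 0.71.

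**Figure D3:**
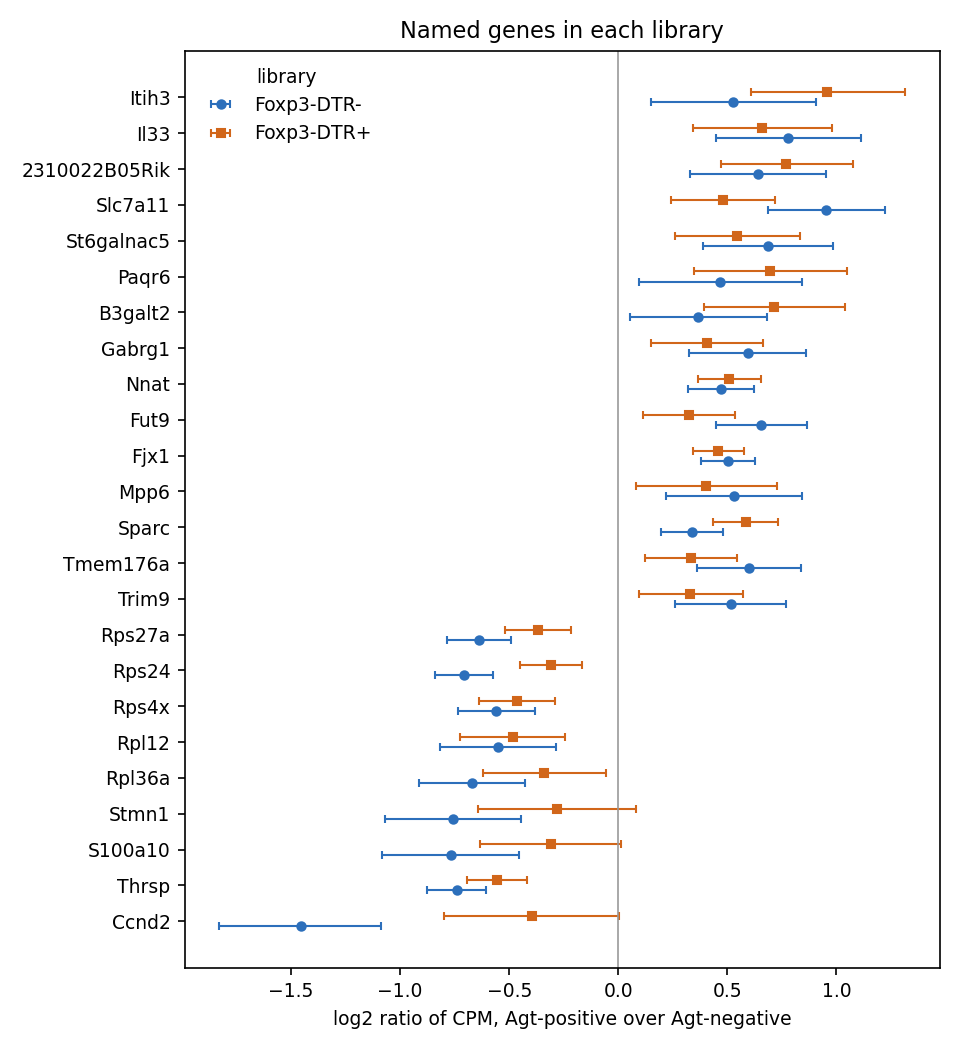
Log2 ratio of CPM, Agt-positive over Agt-negative (x axis), for 24 of the 25 genes named by rule (y axis) in Foxp3-DTR- (circles) and Foxp3-DTR+ (squares), with exact 95% intervals for counting error. Each gene lies on the same side of 0 in both libraries, as the naming rule required, and Ccnd2 differs most between them.

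Ribosomal protein genes were lower in members, a set chosen after the values were seen. Of 76 tested, 35 passed as lower and 0 as higher, 74 were lower in both libraries, and their median log2 ratio was -0.35 against -0.00 over all genes tested. Rps24 was at 938 and 699 CPM in Agt-negative and 575 and 565 CPM in Agt-positive cells (log2 ratio -0.51 ± 0.10; edgeR adjusted p = 9e-05). Rps27a was at 730 and 634 against 469 and 491 CPM (log2 ratio -0.50 ± 0.10; edgeR adjusted p = 0.0002), and Rps4x, Rpl12 and Rpl36a were also named by rule. The calls held in 5 of 12 settings for Rps24 and Rps27a, 4 for Rpl12, and 3 for Rps4x and Rpl36a. The summed level of the 76 genes was 37346 and 32198 CPM in Agt-negative and 26632 and 27552 CPM in Agt-positive cells. These genes have many near-identical copies, so single genes are uncertain. With doublets removed 0 of the 76 passed, while all 76 ratios stayed below 0. Among cells with all 8 astrocyte genes, 3 passed and the median was -0.20.

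Neural stem cell and progenitor genes, which mark the neurogenic lineage of the dentate gyrus, were mostly lower in members. Of 16 listed, 12 were tested, and 3 passed, all lower, among them Sox4 and Sox11, transcription factor genes of young neurons. The list median was -0.45. Sox11 was at 64.5 and 40.4 CPM in Agt-negative and 28.4 and 27.3 CPM in Agt-positive cells (log2 ratio -0.90 ± 0.22; edgeR adjusted p = 0.0057). Its call held in 2 of 11 alternative settings. Ccnd2, a cell-cycle cyclin of progenitors, was at 174 and 93.7 against 63.5 and 71.3 CPM, and Stmn1, a microtubule regulator, at 175 and 110 against 104 and 90.3 CPM. Few cells carried these counts. Sox11 was seen in 8.13% and 8.66% of thinned Agt-negative astrocytes and in 5.65% and 3.89% of thinned members, and the 5 highest of the Agt-negative cells held 56.9% of the Ccnd2 UMIs in Foxp3-DTR-. After dropping cells with any UMI of a set of progenitor genes that includes Sox11, Dcx, Thbs4 and Eomes, or more than 1 Ttr UMI, an alternative chosen after seeing the data, 14 genes passed. Then the list median was -0.02, the Ccnd2 ratio -0.01 and the Stmn1 ratio 0.28. Thrsp was still lower in members, with a log2 ratio of -0.63.

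Traces of other cell types stood in the Agt-negative class. Ttr, the choroid plexus transthyretin gene, was at 1509 CPM in Agt-negative cells of Foxp3-DTR- and 93.4 CPM in members, but at 25.9 and 29.6 CPM in Foxp3-DTR+, and 5 cells held 94.4% of the UMIs in the first sum. Vtn, a pericyte gene, was at 74.2 and 51.8 CPM against 5.98 and 4.55 CPM, with 5 cells holding 100% and 94.1% of the Agt-negative UMIs. Cxcl10, an interferon-induced chemokine gene, was at 9 and 23.6 CPM against 0 and 0.758 CPM, all from 5 or fewer cells per sum. The precursor gene Gpr17 was also lower in members. Their part in the other differences was not tested beyond the stricter selections given beside those genes.

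Among immediate early and heat shock genes, which rise when tissue is dissociated, some changed direction with the selection of cells. Of 21 listed, 16 were tested and 7 passed as lower in members (Fos, Jun, Egr1, Ier2, Hspa1a, Hspa1b and Hsp90aa1), with a median of -0.46. Jun was at 628 and 555 CPM without and 393 and 464 CPM with Agt. Fos was at 842 against 537 CPM in Foxp3-DTR- but at 683 against 670 CPM in Foxp3-DTR+. Among cells with all 8 astrocyte genes the median was 0.09, with 5 of 15 below 0, and Fos and Jun had ratios of 0.26 and 0.09. The called heat shock genes Hspa1a, Hspa1b and Hsp90aa1 kept their sign: over the settings that gave a value, Hspa1a ranged from -2.83 to -1.33 and Hsp90aa1 from -0.61 to -0.20.

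Reactive astrocyte genes were scarce in members. Of 37 listed, 6 could be tested, and 2 passed, both lower: S100a10, a calcium-binding adaptor, and Hspb1, a small heat shock protein with few counts. S100a10 was at 173 and 137 CPM in Agt-negative and 102 and 111 CPM in Agt-positive cells (log2 ratio -0.54 ± 0.14; edgeR adjusted p = 0.011). Its call held in 4 of 12 alternative settings. Gfap, the astrocyte intermediate filament, was at 157 and 161 against 113 and 143 CPM, a log2 ratio of -0.31 ± 0.13 that did not pass (edgeR adjusted p = 0.36). Lcn2, Steap4 and C3 had 0 UMIs in all 4 sums.

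In the other lists few members passed. Of the 19 genes of the renin-angiotensin system, only 4 besides Agt had enough counts to be tested, and 0 passed. They were Atp6ap2, the prorenin receptor (log2 ratio 0.07 ± 0.14), Lnpep, the angiotensin IV receptor (-0.09 ± 0.17), Agtrap, which binds the type 1 receptor (-0.37 ± 0.26), and the peptidase gene Thop1 (-0.23 ± 0.38). Renin (Ren1) and the receptor genes Agtr1a, Agtr1b, Agtr2 and Mas1 had 0 UMIs in all 4 sums. Of 8 tested genes of glutamate uptake and metabolism 0 passed, with a median of 0.12, and of 21 lipoprotein and cholesterol genes 0 passed, with a median of 0.17 and 14 higher in both libraries. Of 13 tested genes for water, ions and junctions Kcnj16 passed as higher. Of 14 tested interferon and MHC class I genes, Cxcl10 passed as lower, and of 13 glucocorticoid response genes the cell-cycle inhibitor gene Cdkn1a did, at 12 and 12.2 against 1.49 and 2.28 CPM. Cdkn1a had only 4 and 3 UMIs over all members. Its call held in 1 of 5 alternative settings, and that of Cxcl10 in 7 of 11. In the glycolysis list 0 of 15 passed, and in the list of Notch, Wnt, Shh and BMP genes 0 of 21. Of 4 tested genes of astrocytes outside the telencephalon, Itih3 and Sparc passed as higher and all 4 were higher in both libraries, with a median of 0.53. Of 7 telencephalic genes, Mfge8 passed as higher and the transcription factor gene Emx1 as lower, at 12.7 and 11.4 against 2.24 and 2.28 CPM. The Emx1 call held in 2 of 8 alternative settings. Lhx2, at 241 and 161 against 207 and 143 CPM, had a log2 ratio of -0.20 ± 0.13 that did not pass (edgeR adjusted p = 0.67).

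Levels were also read across the number of Agt UMIs in a cell, as a description. Sparc went from 578 CPM with 0 Agt UMIs to 631, 800 and 846 CPM with 1, 2 and 3 or more in Foxp3-DTR-, and from 493 to 596, 709 and 807 CPM in Foxp3-DTR+. Slc6a11 was at 265, 258, 408 and 406 CPM in the first library and at 297, 388, 303 and 451 CPM in the second, with no steady order. Mfge8 and Itih3 rose at each step in Foxp3-DTR+ but not in Foxp3-DTR-, where Mfge8 was at 1621, 2195, 1888 and 2453 CPM. Il33 and Slc7a11 rose at each step in neither library. Slc7a11 was at 137, 268, 271 and 222 CPM in Foxp3-DTR- and at 187, 171, 295 and 291 CPM in Foxp3-DTR+. Each of them was higher with 3 or more Agt UMIs than with 0 in both libraries. The ribosomal protein sum dropped between 0 and 1 Agt UMI, from 36609 to 26574 CPM in Foxp3-DTR- and from 31585 to 28480 CPM in Foxp3-DTR+, and ended at 26722 and 26144 CPM with 3 or more.

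**Figure D4:**
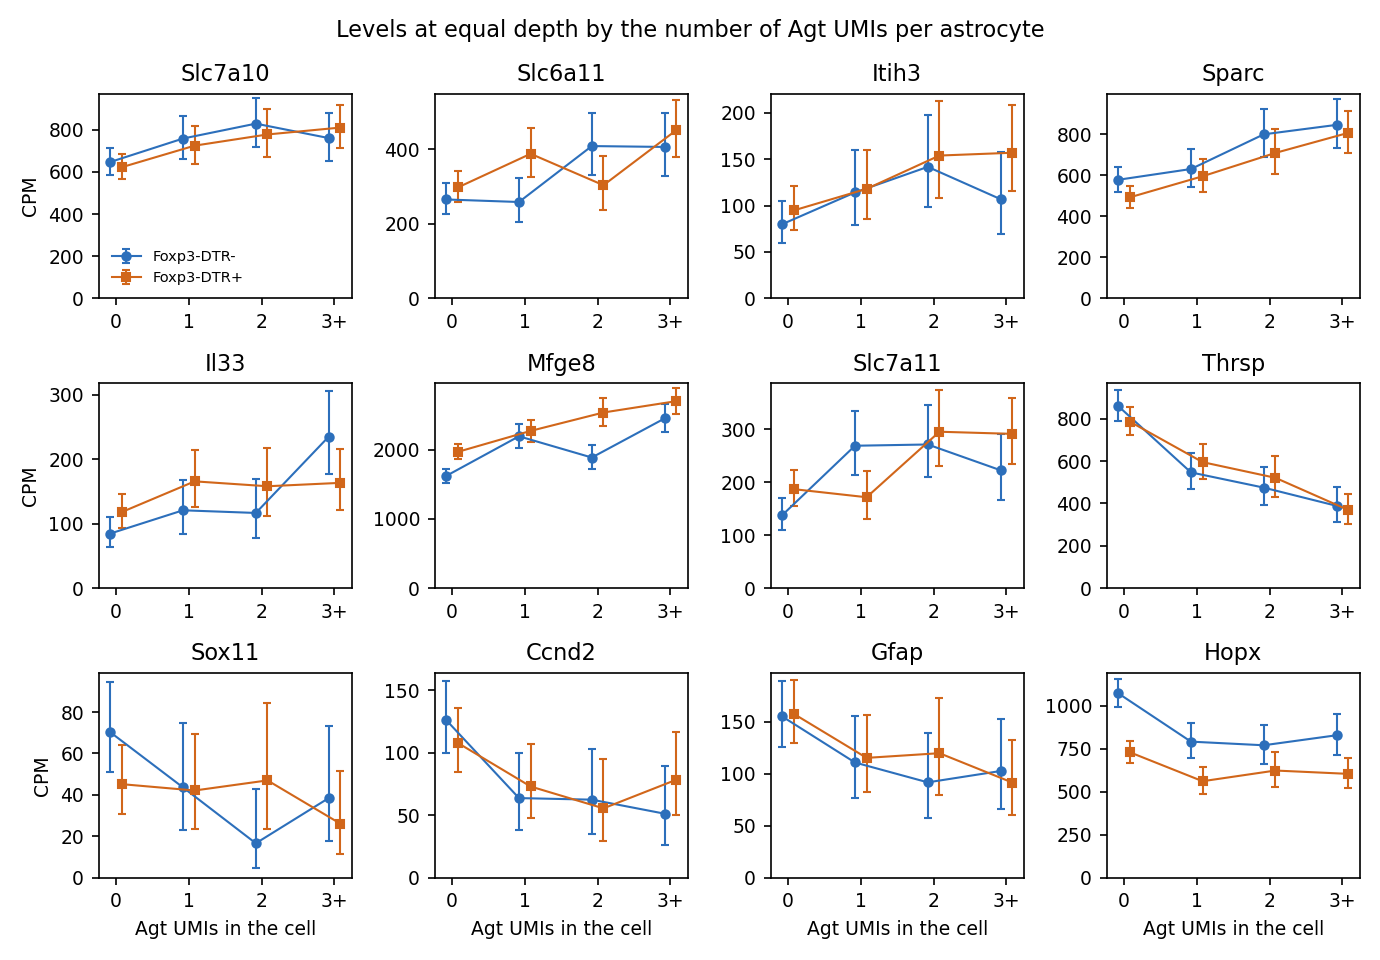
Levels of 12 genes (y axes, CPM) in astrocytes with 0, 1, 2 and 3 or more Agt UMIs (x axes), in Foxp3-DTR- (circles) and Foxp3-DTR+ (squares), with exact 95% Poisson intervals. Agt UMIs were counted before each cell was thinned to 2000 UMIs, and levels were read after it. Thrsp steps down and Sparc steps up in both libraries, while Slc6a11 has no steady order. Mfge8 and Itih3 rise at each step only in Foxp3-DTR+, and Il33 and Slc7a11 in neither library.

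Members of the Foxp3-DTR+ library were compared with members of the Foxp3-DTR- library, the contrast that bears on the loss of regulatory T cells. It rests on 1 library per genotype, so no test was made and ratios carry counting intervals only. Members of both genotypes had nearly the same profile. Of 1518 genes with at least 100 CPM in 1 library, 98.6% lay within 1.5-fold, and 4 (0.264%) were past 2-fold: 1 higher (0.0659%) and 3 lower (0.198%) in Foxp3-DTR+. Gm42826, a predicted gene, was at 41.2 CPM in Foxp3-DTR- and 110 CPM in Foxp3-DTR+ (log2 ratio 1.42, 1.03 to 1.82). Ubb, a polyubiquitin gene, was at 675 and 328 CPM (log2 ratio -1.04), Pfn1, the actin regulator profilin 1, at 135 and 66.8 CPM (-1.02), and Rpl35 at 223 and 111 CPM (-1.01). After thinning to 2000 UMIs only Gm42826 of these 4 was past 2-fold, beside Naaa and Tcea1, and in the other settings that kept 100 CPM Pfn1, Rpl35 or neither dropped out. Agt-negative astrocytes of the same libraries had log2 ratios of 1.43, -1.15, -0.74 and -1.20 for these genes, and 7 of 1565 genes past 2-fold, 3 of them shared.

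Astrocyte markers outside the rule differed little between genotypes. Slc7a10 had a log2 ratio of -0.00 (-0.11 to 0.11) and Slc6a11 of 0.09 (-0.07 to 0.25). Between genotypes, the 25 genes named in the Agt contrast had log2 ratios from -0.27 (Rpl36a) to 0.35 (Ccnd2). Mfge8 was at 2072 and 2462 CPM (0.25, 0.19 to 0.31) and Nnat at 586 and 712 CPM (0.28, 0.16 to 0.40), with counting intervals above 0. Agt-negative astrocytes had a log2 ratio of 0.23 for both genes. Il33 stood at 150 and 163 CPM, Slc7a11 at 250 and 263 CPM and Thrsp at 497 and 525 CPM in Foxp3-DTR- and Foxp3-DTR+. In the renin-angiotensin list Atp6ap2 was at 138 and 116 CPM, Agtrap at 23.9 and 30.8 CPM and Lnpep at 60.2 and 69.1 CPM.

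Over all 9817 genes with at least 20 UMIs, 5298 were above 0 and 4519 below, with a median of 0.04, and the list counts below stand beside these. Cholesterol and lipoprotein genes had 17 of 21 members above 0, with a median of 0.12. Apoe, the main lipid carrier, was at 25924 and 31220 CPM (log2 ratio 0.27), and the sterol synthesis gene Fdft1 at 193 and 263 CPM (0.45). Agt-negative astrocytes had a list median of 0.16, with log2 ratios of 0.26 for Apoe and 0.21 for Fdft1. Fabp7, a fatty acid binding protein gene, went the other way, at 612 and 407 CPM (-0.59, and -0.51 in Agt-negative astrocytes). Notch, Wnt, Shh and BMP genes had 15 of 22 below 0, with a median of -0.15. The Notch target Hes1 was at 233 and 145 CPM (-0.68) and the receptor gene Notch2 at 122 and 79.9 CPM (-0.61), while the other Notch target Hes5 was at 361 and 444 CPM (0.30). Agt-negative astrocytes had a list median of -0.07, with -0.51 for Hes1, -0.34 for Notch2 and -0.07 for Hes5. Of 14 interferon and MHC class I genes, 10 were below 0, with a median of -0.14 (0.32 in Agt-negative astrocytes). Counting intervals lay above 0 only for Ifi27 and below 0 only for Tap2. The whole list of 28 genes summed to 471 and 508 CPM. H2-K1 was at 110 and 120 CPM, B2m at 76 and 72.5 CPM and Ifi27 at 85.7 and 126 CPM. Of 7 reactive genes, 4 were below 0, with a median of -0.05 (-0.44 in Agt-negative astrocytes). Gfap was at 109 and 134 CPM and Vim at 75.4 and 46.2 CPM. Metallothionein genes Mt1 (8232 and 9549 CPM) and Mt2 (1240 and 1490 CPM) had log2 ratios of 0.21 and 0.27, and the glucocorticoid response list had a median of 0.12. For Agt-negative astrocytes these values were 0.16, 0.13 and -0.03. The glycolytic enzyme gene Eno1 was at 664 and 399 CPM (-0.74), and at 736 and 405 CPM in Agt-negative astrocytes.

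**Figure D5:**
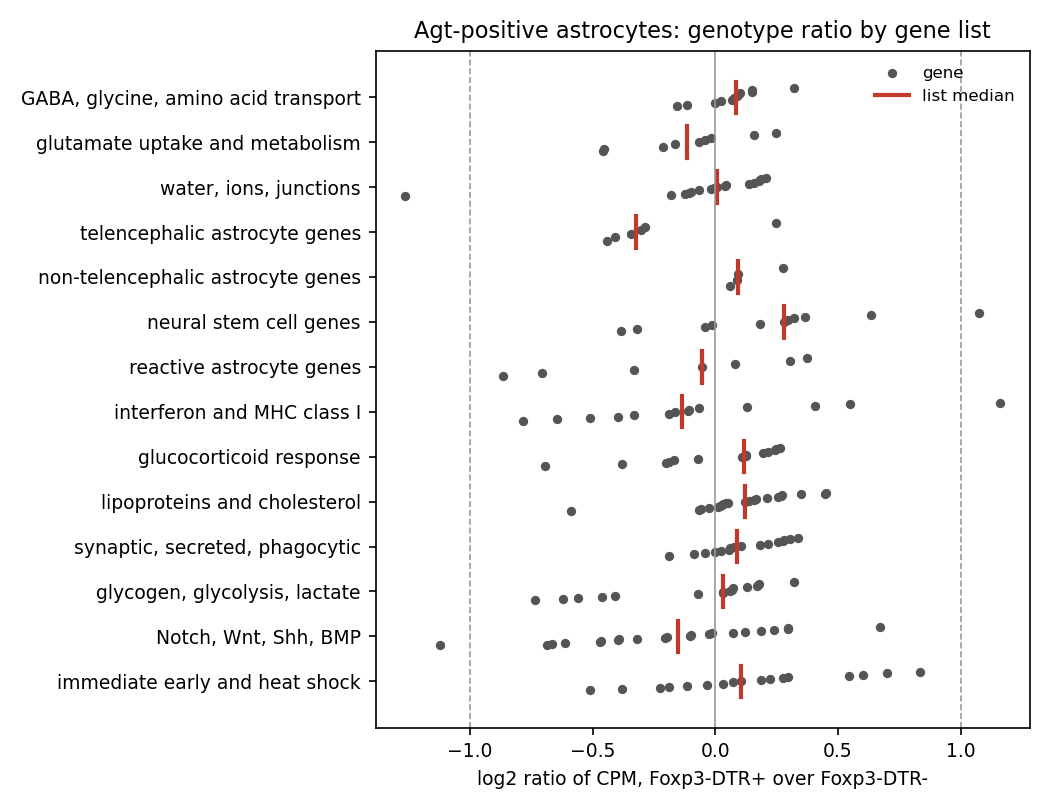
Log2 ratio of CPM, Foxp3-DTR+ over Foxp3-DTR- (x axis), in Agt-positive astrocytes for listed genes with at least 20 UMIs (points), by gene list (y axis), with list medians as red bars and dashed lines at 2-fold. Every list median lies between -0.32 and 0.28.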

How the data were processed

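Per the file headers the hippocampal matrices hold UMI counts written by Cell Ranger 6.1.0, deposited by the authors as barcodes already called as cells (8220 and 6548); the submitters' processing notes also name mm10 and Seurat. Symbols shared by several gene IDs were summed. After the filters 7105 and 5849 cells remained. Members and gene lists were chosen with earlier results of these data known. Scrublet (Scanpy 1.11.5) scored doublets, which were kept in the main fit.

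CPM are counts scaled to 1000000 UMIs per sum. The main test was edgeR 4.0.16 (TMM, filterByExpr, glmQLFit and glmQLFTest, library as block) on 4 sums, and DESeq2 1.42.0 was an alternative. In simulated sums over 9202 genes, 31.4% of genes changed 1.5-fold, 81.6% of those changed 2-fold and 0.033% of unchanged genes were called. The simulation had a fixed assumed dispersion, no library effect and no clumping of UMIs in few cells. Its changed genes were drawn only from those with larger counts. These rates therefore need not hold for the real sums. The 13 genes of the rule were left untested. Named genes were the 15 highest and 10 lowest ratios among genes past an adjusted p of 0.05, of the same direction in both libraries and with a mean of at least 100 CPM. Added were members of the lists and, for genotype, genes past 2-fold with at least 100 CPM in 1 library. Ratios between single libraries carry exact 95% intervals. Agt coordinates come from GENCODE M21, to which 55227 of 55487 gene IDs matched without version. The meningeal samples were not used here. A few listed or named genes are not reported here.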

Additional observations from a re-analysis of the deposited data

Results flagged for a closer look

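The sign of 4 listed genes' Agt-positive over Agt-negative ratio differed between the libraries, with counting intervals on opposite sides of 0, and the difference was not tested because each genotype has 1 library. Mertk, a phagocytic receptor gene, had log2 ratios of 0.33 in Foxp3-DTR- and -0.27 in Foxp3-DTR+. Junb, an immediate early gene, had log2 ratios of -0.58 and 0.64. For the glutamine transporter gene Slc38a3 they were 0.32 and -0.36, and for the metallothionein gene Mt2 they were -0.13 and 0.0984. The Foxp3-DTR+ over Foxp3-DTR- ratio likewise had opposite signs in the Agt classes for 4 listed genes, again with intervals on opposite sides of 0 and not tested. Sox4 had a log2 ratio of 0.64 in Agt-positive and -0.46 in Agt-negative astrocytes, and Egr1 one of 0.54 and -0.45. For Fos the ratios were 0.22 and -0.18, and for Gapdh 0.0611 and -0.10. Genes of the rule were left out.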

How the results depend on the processing

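The number of genes that differed with Agt (158) was 1 without the block, 4 with DESeq2, 0 without the low-count filter (689 at an unadjusted p under 0.05), 324 without depth matching, 63 in thinned cells, 85 with at least 2 Agt UMIs, 2 with doublets removed and 39 with at least 6 of the 8 genes. It was 161 in another draw of cells and 190 with at least 1000 genes per cell. In the alternatives chosen after seeing the data it was 48 with all 8 genes and 14 in cells without progenitor gene UMIs and with at most 1 Ttr UMI. It could not be recomputed without a library, for lack of residual degrees of freedom. Of 300 values for the 25 named genes in 12 alternative fits, 137 kept direction and call, 161 kept direction only and 2 reversed. The 50 values from 1 library alone, which have no call, kept their sign, as the naming rule required. Signs reversed for Ier2 with at least 6 of the 8 genes (0.0145). With all 8 genes they reversed for Stmn1 (0.14), Sox4 (0.0195), Fos (0.26), Jun (0.0948), Egr1 (0.61) and Ier2 (0.024). In the cells without progenitor gene UMIs and with at most 1 Ttr UMI they reversed for Stmn1 (0.28), Sox4 (0.41), Fos (0.31), Jun (0.0389) and Egr1 (0.36), and Kcnj10 ranged from -0.0817 without the Foxp3-DTR- library to 0.32 without the other. The genotype difference in the Agt share was -1.30 points at 4000 UMIs. At 50 CPM, 7 genes were past 2-fold between genotypes, and the 4 reported genes kept their direction in 32 of 32 values, but in thinned cells only 1 of them stayed past 2-fold. No paired analysis was possible because each genotype has 1 library; the library block pairs the Agt classes within it. Most single genes have under 100 CPM, and 1.5-fold changes were called in 31.4% of simulated cases, in a simulation without library effects.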
